A study of Mus musculus with 16 samples.

Results

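The comparison described here is that of hearts raised in Tnpo3 by a virus with hearts given a control virus, in wild-type (WT) mice. It takes the 4 WT Tnpo3 and the 4 WT Ctr libraries, 8 of the 16 samples in the series, chosen by their labelled genotype and virus. Each library is polyadenylated RNA from the left ventricle of 1 mouse. The other 8 mice were homozygous for P635L, a missense mutation of the cardiac splicing factor RBM20, and are used only where a difference from WT is tested or a value is set beside it.

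All 16 mice were of the Bl6J strain, and both sexes were used. At 4 weeks of age each one was injected through a tail vein with AAV9, an adeno-associated virus that reaches heart muscle, at 1e12 viral genomes. The WT Tnpo3 mice received a vector with the Tnpo3 cDNA. The WT Ctr mice received a vector in which the CAG promoter drives an improved Cre recombinase joined by a self-cleaving peptide to eGFP, so the controls also made foreign proteins. Hearts were collected 12 weeks after injection, at 16 weeks of age. The promoter of the Tnpo3 vector is not given in the sources used here, and mice without virus are not analysed here.

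TNPO3, also called transportin-SR, is an import receptor of the karyopherin beta family. It binds proteins with stretches of arginine and serine, among them the SR splicing factors, carries them through the nuclear pore, and releases them in the nucleus when Ran bound to GTP takes their place. RBM20 has such an arginine- and serine-rich stretch, in which the P635L mutation lies, and in the nucleus of heart muscle cells it represses exons of titin and of calcium-handling genes. The comparison in WT hearts asks what more of the receptor does where its cargo is normal.

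The WT libraries held 28493249 to 40610576 counts over 56953 listed genes, and 16751 genes were tested. The 6 cardiomyocyte markers summed to between 48260 and 67630 CPM, counts scaled to a common library size, in every WT library, and the 5 skeletal muscle markers to between 2.16 and 3.45 CPM. A single transcript, ENSMUSG00000119584, took between 19.96% and 22.65% of the counts in WT Ctr 2, WT Ctr 4 and WT Tnpo3 4, and between 0.75% and 1.39% in the other 5. Xist, the transcript of the inactive X chromosome, exceeded Y-linked counts in WT Ctr 4, WT Tnpo3 2 and WT Tnpo3 4. WT Ctr 1 stood apart by its immune transcripts, described below with the cell markers. The first principal component held 34.9% of the variance and fell in order of the replicate number in both groups. It was at 24.2, 8.3, -1.2 and -31.6 in WT Ctr 1 to 4, and at 21.1, 13.8, 0.2 and -34.7 in WT Tnpo3 1 to 4. It did not separate the virus groups. The main fit holds no term for the replicate number and counts such variation as spread between libraries. The common biological coefficient of variation was 0.287 in WT and 0.168 in P635L, and the WT libraries were therefore fitted on their own.

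Tnpo3 was higher in every heart that received its vector. Tnpo3 (ENSMUSG00000012535, GRCm39 chromosome 6, 29540826 to 29609886, minus strand) stood at 39.9, 45.6, 38.5 and 41.4 CPM in WT Ctr 1 to 4. It stood at 260, 241, 213 and 469 CPM in WT Tnpo3 1 to 4. The controls lay close together, the groups did not overlap, and WT Tnpo3 4 was well above the other 3 treated hearts. The means of 4 mice were 41.3 ± 3.04 CPM (SD) with the control vector and 296 ± 117 CPM (SD) with Tnpo3, a 7.16-fold difference. The log2 fold change was 2.84 (SE 0.24), with an adjusted p of 0.00114 by edgeR's quasi-likelihood test with Benjamini-Hochberg adjustment. By an exact permutation of the 8 libraries, two-sided, p was 0.0286, the smallest that 4 against 4 libraries allow. Tnpo3 was called under each of the 20 alternative settings, with a log2 fold change between 2.52 and 2.97. Without WT Tnpo3 4 it was 2.53. In bulk tissue, more cells with a vector and more vector RNA per cell cannot be told apart.

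Reads at the deeper of the listed splice junctions of Tnpo3 differed by more than the gene count. The authors' rMATS table lists such reads for each library without saying which mouse stands at which of the 4 positions of a group. Reads including a 92-base exon (29571035 to 29571126) numbered 59, 40, 54 and 69 in WT Ctr and 990, 1331, 999 and 2565 in WT Tnpo3. Scaled by the counts of all 4 libraries of each group, that is 25.3-fold, with a 95% interval of 22.1 to 29.1 that covers counting error only. The junction that joins exon 1 to exon 2 had 3, 16, 5 and 14 reads in WT Ctr against 248, 366, 293 and 697 in WT Tnpo3, a 40.3-fold difference (29.2 to 57.1). At both junctions the lowest treated heart was far above the highest control.

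**Figure D1:**
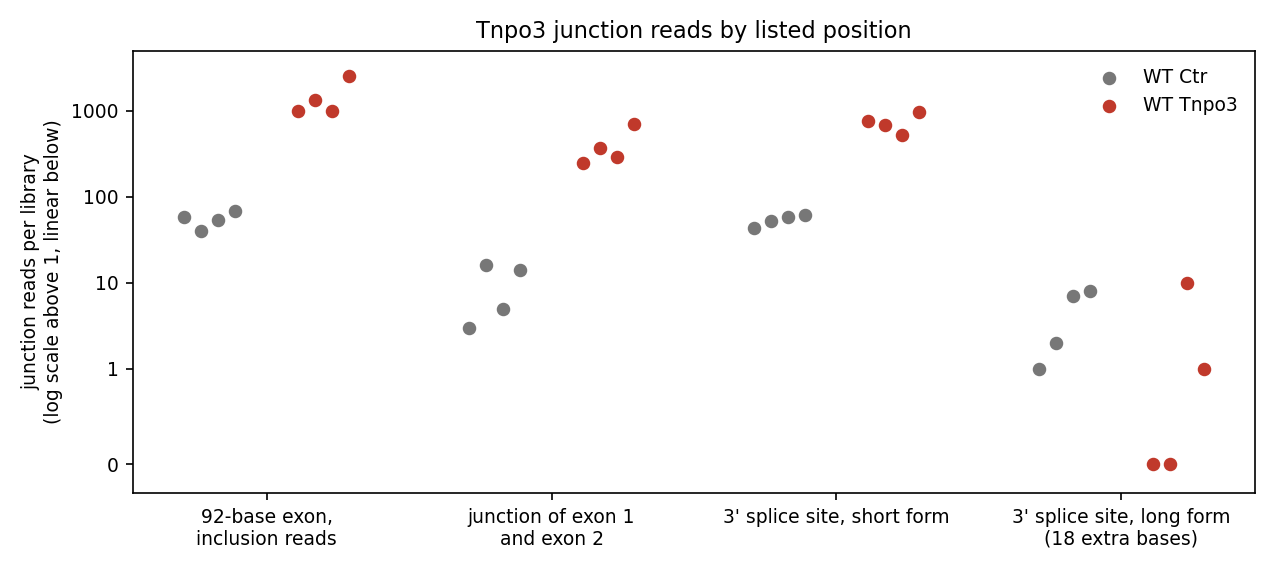
Tnpo3 junction reads per library (y axis, logarithmic above 1 read and linear below) at 4 splice features (x axis), with WT Ctr in grey and WT Tnpo3 in red, 4 listed positions each. The first 3 features are higher in all 4 WT Tnpo3 positions, while the long form of the 3' splice site has 1, 2, 7 and 8 reads in WT Ctr and 0, 0, 10 and 1 in WT Tnpo3.

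At one Tnpo3 splice choice the reads of one form differed between the groups, while the counting interval of the other took in no difference. A 3' splice site within the gene (29554794 to 29554979) can be used in a long form that keeps 18 bases more, or in a short form that leaves them out. Both forms are annotated as coding, and 18 is a multiple of 3, so the reading frame is kept. The sequences below are GENCODE M21 transcripts (GRCm38, minus strand), matched to the event by exon lengths, with 15 bases of the preceding exon first, and they are shown because the 18 bases, in capitals, are what tells the long form from the short one. The capitals lie at chr6:29554963-29554980, and 13 of their 18 bases are C or T.
Tnpo3, long form: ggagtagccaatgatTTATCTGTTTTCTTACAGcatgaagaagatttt
Tnpo3, short form: ggagtagccaatgatcatgaagaagatttt

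Reads of the short form numbered 44, 52, 58 and 61 in WT Ctr and 768, 689, 525 and 961 in WT Tnpo3, a 13.1-fold difference (95% counting interval 11.4 to 15.1). Reads of the long form summed to 18 in WT Ctr and 11 in WT Tnpo3, a ratio of 0.583 with an interval of 0.249 to 1.3 that includes no difference. The share of the long form was 0.019, 0.032, 0.094 and 0.101 in WT Ctr and 0, 0, 0.016 and 0.001 in WT Tnpo3. Every control position lay above every treated one. The difference in share was -0.057, with an FDR of 0.000373 in the authors' deposited table. The exact permutation p of 0.0286 is what any event without overlap gives. The difference did not pass the size limit of 0.1 set for calls. In the quasi-binomial test described below its adjusted p was 0.839. An alternative exon between exons 1 and 2 (29599539 to 29599697) had 4 reads in WT Ctr and 15 in WT Tnpo3 in all.

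Irf5, which encodes an interferon regulatory factor and overlaps the end of Tnpo3 on the opposite strand, was read for a spill-over of added Tnpo3 reads. It stood at 16.7, 4.42, 3.73 and 5.19 CPM in WT Ctr and at 5.3, 4.94, 7 and 7.22 CPM in WT Tnpo3. Apart from WT Ctr 1 the groups differ by 0.46 on the log2 scale, and with it by -0.29 (SE 0.44). Neither value passed the test. Whether the Tnpo3 vector holds the overlapped stretch, and whether counting used strand, are not given in the sources used here. Without either fact the Irf5 values cannot decide whether reads spilled over. Rbm20, the cargo that is mutated in the other mice, stood at 153, 176, 266 and 308 CPM in WT Ctr and 156, 181, 215 and 277 CPM in WT Tnpo3. The groups overlapped throughout, and the log2 fold change was -0.12 with a 95% interval of -0.66 to 0.41.

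**Figure D2:**
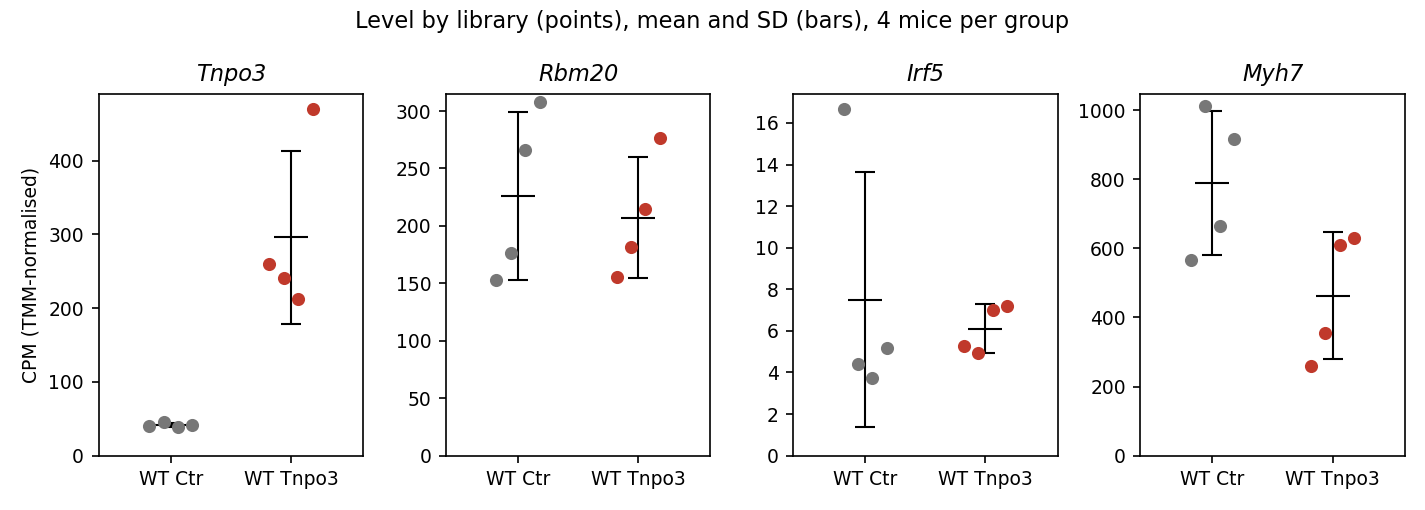
CPM (y axis, from 0) of Tnpo3, Rbm20, Irf5 and Myh7 in each WT library, with WT Ctr in grey and WT Tnpo3 in red, and bars for the mean and SD of 4 mice. Only the Tnpo3 panel, of the 4 drawn, shows groups that do not overlap.

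Beyond Tnpo3, no gene of the 16751 tested was called. The 1 gene called higher is 0.00597% of those tested, and 0 were called lower by edgeR's quasi-likelihood test. At an unadjusted p under 0.05 there were 177 genes (1.06%), and DESeq2 called 2 genes and limma voom 1. Without any effect a share of 0.05 would be met, so the test ran conservative in these libraries. A lack of calls is therefore not a lack of effect. The count of 177 became 425 with a term for the replicate number and 513 without the 3 libraries rich in ENSMUSG00000119584. Leaving out single libraries gave 89 to 471. The libraries of both groups did not overlap for 173 genes (1.03%), 101 higher and 72 lower with Tnpo3. The median absolute log2 fold change was 0.12 and the median SE 0.21. The 95% interval of the log2 fold change lay within 1 of 0 for 12349 genes (73.7%) and within 0.58, a 1.5-fold change, for 8048 genes (48.0%). For the other genes, Tnpo3 among them, the interval took in changes beyond 1.5-fold.

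**Figure D3:**
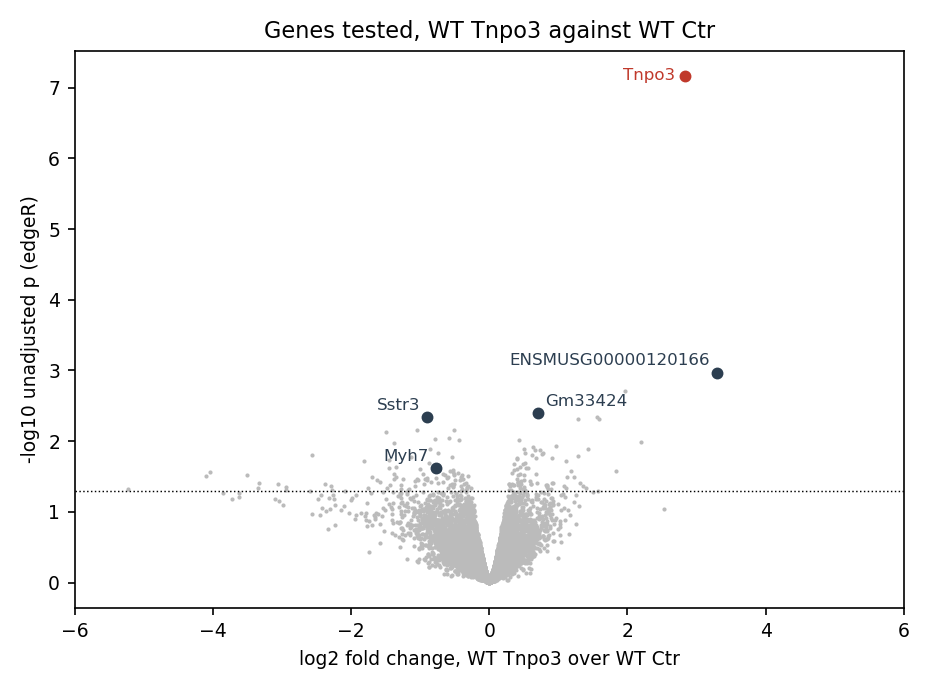
Log2 fold change of WT Tnpo3 over WT Ctr (x axis) against -log10 of the unadjusted edgeR p (y axis) for the 16751 genes tested. Tnpo3 (red) is the 1 gene called, the dotted line marks an unadjusted p of 0.05, and 4 other genes are named.

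The authors' deposited DESeq2 table lists 24515 genes for this comparison and calls 3 of them. Tnpo3 is one, with a log2 fold change of 2.85 in the authors' deposited table. The second, Gm13394, a predicted gene, has a log2 fold change of -8.21 in the authors' deposited table. It did not pass the low-count filter of the main fit here and was not among the genes tested. In the counts it stood at 136 and 138 CPM in WT Ctr 1 and 2, and at 0.0931 to 0.36 CPM in the other 6 WT libraries, WT Ctr 3 and 4 among them. The third, ENSMUSG00000120166, has no symbol in the tables used. Its raw counts were 2, 5, 10 and 14 in WT Ctr and 96, 142, 8 and 92 in WT Tnpo3, so WT Tnpo3 3 lay within the control range. Its log2 fold change was 3.30 (SE 0.75) with an adjusted p of 1 by edgeR's quasi-likelihood test, while DESeq2 here gave an adjusted p of 0.0135.

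Among genes whose mean log2 CPM reached 1 and whose libraries did not overlap, the 8 with the smallest unadjusted p in each direction are given as values, since each had an adjusted p of 1 by edgeR. With higher values in WT Tnpo3 they were Gm33424, Car4, Gm44067, L1cam, Gm42547, Trpv4, Nrn1 and Gm14327, with log2 fold changes of 0.43 to 0.97. Car4, a membrane-bound carbonic anhydrase of capillary endothelium and heart muscle, stood at 34.6, 25.9, 35.1 and 33.2 CPM in WT Ctr and 43.7, 47.4, 42.2 and 40.5 CPM in WT Tnpo3. Every treated heart was above every control, by 0.43 on the log2 scale (SE 0.14). Trpv4, a calcium-permeable channel opened by stretch and heat, had a log2 fold change of 0.51 (SE 0.18), and L1cam, a neural cell adhesion molecule, one of 0.66 (SE 0.23).

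With lower values in WT Tnpo3, 7 of the 8 were Sstr3, Bcl11b, Atp8a2, P2rx5, Acsm5, Fzd9 and Nudc-ps1, with log2 fold changes of -1.05 to -0.44. P2rx5, an ATP-gated ion channel, stood at 21.2, 20.3, 21.3 and 18.9 CPM in WT Ctr and 13.3, 18.2, 15.6 and 13 CPM in WT Tnpo3. The gap between the nearest libraries of the groups was small. Sstr3 (a somatostatin receptor), Bcl11b (a zinc-finger repressor best known from T cells) and Fzd9 (a Wnt receptor) were all under 9 CPM in every WT library.

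The transport machinery around TNPO3 showed no called change. Of 24 other nuclear import and export receptors and Ran-cycle proteins, 0 were called, none had an unadjusted edgeR p under 0.05, and DESeq2 and limma voom called none. Their median log2 fold change was 0.06, beside -0.02 for the genes tested, with a range of -0.24 to 0.28. For all 24 the 95% interval lay within 1 of 0. Kpnb1, the importin beta that carries cargo bound by importin alpha, stood at 103, 111, 94.0 and 102 CPM in WT Ctr and 102, 113, 86.0 and 97.7 CPM in WT Tnpo3. Ipo5, an importin of ribosomal proteins and histones, had a log2 fold change of 0.05 (SE 0.18), and Ran, the GTPase that sets the direction of transport, one of 0.04 (SE 0.19). The groups overlapped for each of these.

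Among the cargoes and their kinases no gene was called either. Of 25 SR proteins and other factors with arginine- and serine-rich domains, 0 were called, 0 had an unadjusted edgeR p under 0.05, and the median log2 fold change was -0.07, with -0.15 to 0.05 when single libraries were left out. Son, a large nuclear speckle protein, stood at 309, 305, 399 and 439 CPM in WT Ctr and 267, 320, 377 and 411 CPM in WT Tnpo3. Srrm2, another speckle scaffold, had a log2 fold change of -0.23 (SE 0.24). Of 9 SR protein kinases, which phosphorylate the domains that TNPO3 reads, 0 were called, and the median was -0.02, with -0.12 to 0.07 without single libraries. Clk1, a nuclear kinase of this group, had a log2 fold change of -0.02 (SE 0.30).

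Transcripts that RBM20 acts on gave no call either. Of 25 RBM20 splice targets, 0 were called, with a median of -0.06 and a range of -0.51 to 0.18 on the log2 scale. The libraries of both groups did not overlap for 1 of the 25, beside 1.03% of all genes tested. It was Pdlim3, a Z-disc protein named here after its values were seen. Its log2 fold change was -0.20, at 13.28 to 15.71 CPM in WT Ctr and 10.52 to 13.27 CPM in WT Tnpo3. Ttn, which encodes the sarcomere spring titin, stood at 1560, 6987, 2094 and 8704 CPM in WT Ctr and 2079, 1887, 1888 and 7725 CPM in WT Tnpo3. The 3 high values belong to the 3 libraries rich in ENSMUSG00000119584. With these libraries the log2 fold change was -0.51 (SE 0.71) and without them 0.09. Tpm1, a tropomyosin of the thin filament, had a log2 fold change of -0.22 (SE 0.18), and Tnnt2, cardiac troponin T, one of -0.27 (SE 0.19).

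**Figure D4:**
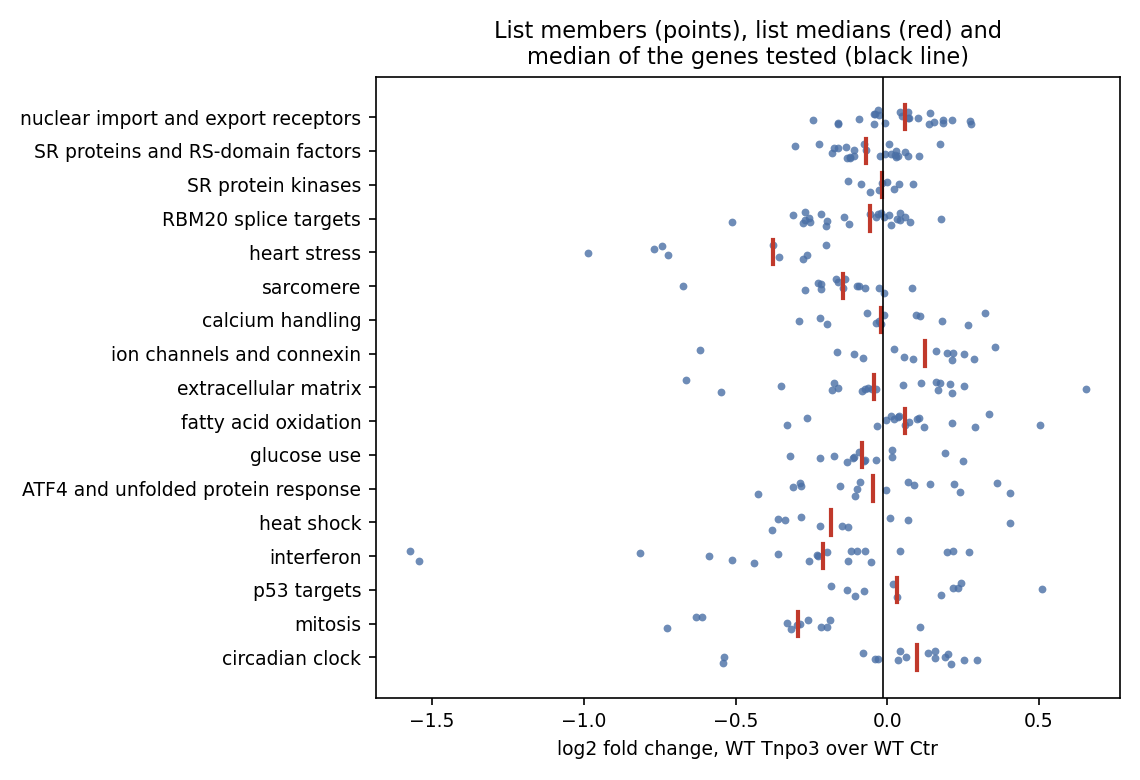
Log2 fold change of WT Tnpo3 over WT Ctr (x axis) for the tested members of 17 gene lists (points, spread vertically for legibility), with each list's median in red and the median of the genes tested as a black line. No list member was called, and the lowest of the 17 medians is that of heart stress, at -0.38.

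Of 9 genes that mark a stressed heart, 0 were called. All 9 log2 fold changes were negative, from -0.99 to -0.20, with a median of -0.38, and 1 member had an unadjusted edgeR p under 0.05. The median stayed negative under each of the 20 alternative settings, between -0.69 and -0.24, but these settings draw on the same WT libraries. The mean log2 level of the list had an SD of 0.40 between libraries of a group. Its summed level was 2262 to 4480 CPM in WT Ctr and 2006 to 2502 CPM in WT Tnpo3, so the groups overlapped. The member with an unadjusted edgeR p under 0.05 was Myh7, the slow beta-myosin heavy chain. It stood at 567, 1010, 664 and 916 CPM in WT Ctr and 260, 354, 610 and 631 CPM in WT Tnpo3. The groups overlapped, since the control at 567 CPM lay below the 2 highest treated hearts. The means were 789 ± 208 and 463 ± 185 CPM (SD, n = 4 each), and the log2 fold change was -0.77 (SE 0.29, edgeR adjusted p = 1). Acta1, the skeletal actin of the fetal heart, stood at 1011, 1485, 366 and 146 CPM in WT Ctr and 557, 562, 270 and 129 CPM in WT Tnpo3, with the widest spread among the controls. Ankrd1, a stretch-responsive sarcomere protein, had a log2 fold change of -0.36 (SE 0.37). Myh7 is overlapped on the other strand by the long noncoding RNA Mhrt, and whether counting used strand is not given in the sources used here.

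Other heart programs stayed without a call. Of 15 sarcomere genes, 14 had negative values and the median was -0.15, and Myh6, the main adult myosin, had a log2 fold change of -0.23 (SE 0.23). The median was -0.02 over 13 tested calcium-handling genes, 0.12 over 14 ion channels and connexins, and -0.04 over 20 genes of the extracellular matrix. Atp2a2, the calcium pump of the sarcoplasmic reticulum, stood at 4435, 6158, 4474 and 5166 CPM in WT Ctr and 8774, 8382, 4198 and 3958 CPM in WT Tnpo3, so that 2 treated hearts lay above every control and the other 2 below them. The median was 0.06 over 17 genes of fatty acid oxidation, -0.08 over 14 of glucose use, and -0.05 over 16 of the unfolded protein and ATF4 response. Hspa5, the chaperone of the endoplasmic reticulum that such stress induces, had a log2 fold change of 0.24 (SE 0.15). Heat shock genes had a median of -0.19 over 10 members, p53 targets 0.03 over 11, and clock genes 0.10 over 16. Several of these medians changed sign when 1 library was left out. Without WT Ctr 1 the extracellular matrix was at 0.23 and the ATF4 list at 0.15, and without WT Ctr 2 heat shock was at 0.07. Clock genes were at -0.12 without WT Ctr 1 and also without WT Tnpo3 4, and were negative without WT Ctr 2. The p53 targets reached -0.06 without WT Tnpo3 2. The medians of calcium handling (-0.07 to 0.05), fatty acid oxidation (-0.03 to 0.22) and glucose use (-0.19 to 0.05) also crossed 0. In each of these lists 0 members were called and 0 had an unadjusted edgeR p under 0.05.

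Immune transcripts were high in a single control heart. The 7 T cell markers summed to 90.0 CPM in WT Ctr 1, to 2.36 to 4.63 CPM in the other controls and to 3.38 to 5.59 CPM in WT Tnpo3. The 5 genes of antigen presentation by class II molecules summed to 2610 CPM in WT Ctr 1, to 266 to 473 CPM in the other controls and to 268 to 563 CPM in WT Tnpo3. The 20 interferon genes summed to 905 CPM in WT Ctr 1 and to 387 to 519 CPM in the other 7 hearts. The list medians were -2.28 for T cells, -1.04 for antigen presentation and -0.21 for interferon. Without WT Ctr 1 they were 0.52, 0.25 and 0.11. The 12 genes of mitosis also changed sign, from -0.29 to 0.17. Macrophage markers summed to 585 CPM in WT Ctr 1 and to 199.5 to 290.8 CPM in the other 7 hearts, and their median was -0.12 with WT Ctr 1 and 0.27 without it. The other resident cells had medians of 0.18 for endothelium, 0.02 for fibroblasts and 0.11 for mural cells, the last at -0.01 without WT Ctr 1. In the 15 marker lists 0 members were called and 0 had an unadjusted edgeR p under 0.05.

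In P635L hearts the same pair of vectors changed 2846 of 17930 genes tested (15.9%) by edgeR's quasi-likelihood test on those 8 libraries, which share no library with the WT comparison. Of these genes, 2779 were also tested in WT, and 1 of them, Tnpo3, was called there. Their median absolute log2 fold change was 0.46 in P635L and 0.10 in WT, beside 0.12 in WT for the 16538 genes tested in both. The WT change had the same sign as that in P635L for 43.1% of the 2779 genes and for 45.5% of the 16538. In WT, 27 of the 2779 had an unadjusted p under 0.05, as did 173 of the 16538, and 24 and 168 did not overlap between groups. By these counts the genes that the vector moved in mutant hearts stood no further from 0 in WT than genes in general. The sets were not matched for level or for spread, which also bear on the size of a fold change. The share of the same sign among genes called in P635L was 34.3% without the libraries rich in ENSMUSG00000119584 and 51.1% without WT Tnpo3 1.

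The test of the difference between the genotypes called 94 of 18662 genes (0.504%), 55 of them with a higher vector effect in P635L. Xist exceeded Y-linked counts in WT Ctr 4, WT Tnpo3 2 and WT Tnpo3 4 but in no P635L library, so the genotypes also differed in sex. Without these Xist-high libraries 54 genes were called. The interaction was fitted to all 16 libraries with a spread shared by the genotypes for each gene. The common coefficient of variation was 0.287 in WT and 0.168 in P635L, so the shared spread can be too small for the WT part. The interaction for Tnpo3 itself was 0.55 (edgeR adjusted p = 0.588), with log2 fold changes of 2.84 in WT and 3.38 in P635L. Myh7 was among the 94. Its level was 182, 145, 181 and 95.8 CPM in P635L Ctr 1 to 4 and 393, 445, 374 and 361 CPM in P635L Tnpo3 1 to 4. The vector thus raised Myh7 in mutant hearts, by 1.38 on the log2 scale (edgeR adjusted p = 0.00197), where WT gave -0.77, and the interaction was 2.16 (edgeR adjusted p = 0.0115). Acsm5, a mitochondrial acyl-CoA synthetase, had an interaction of 3.21 (edgeR adjusted p = 0.0429). Its level was 1.56 to 6.89 CPM in WT hearts and below 1 CPM in all 8 P635L libraries.

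Splicing was read from the authors' rMATS table, in which an inclusion level, from 0 to 1, estimates the share of transcripts that keep a segment. rMATS scales the junction reads of each form by its length first, so a level can differ from the plain share of the reads. Of 41025 listed events, 31883 had a mean of at least 10 reads in both groups. By the authors' FDR under 0.05 and a difference of at least 0.1, 300 events in 268 genes were called (0.941%), 138 with higher inclusion in WT Tnpo3 and 162 with lower. For 71 of the 300 the groups did not overlap, and over all tested events this held for 347 (1.09%). A quasi-binomial test of the same reads, in which the spread between mice enters, called 0 events, with 811 at an unadjusted p under 0.05 (2.54%). Limma on log ratios also called 0, with 1174 at an unadjusted p under 0.05. The share of 2.54% is below the 0.05 that no change would give, so the lack of quasi-binomial calls is not a lack of change. Shallow events carried most of the rMATS calls. Of events with 10 to 20 reads 2.76% were called, with 20 to 50 reads 1.68%, with 50 to 100 reads 0.573%, and with at least 100 reads 0.051%, that is 7 of 13729.

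Skipped exons made up 180 of the 300 calls, retained introns 44, alternative 3' splice sites 40, alternative 5' splice sites 23 and mutually exclusive exons 13. Among the 5 non-overlapping calls with the largest gain were those in Tjap1, Abcc8, Cabp1 and Phf21a, with gains of 0.37 to 0.53. The 5 with the largest loss were in Madd, Slc22a17, Fam168b, Ogfod1 and Acbd4, with differences of -0.45 to -0.32. Madd, an exchange factor for Rab GTPases, included a 63-base exon at 0.817, 0.636, 0.679 and 0.488 in WT Ctr and 0.113, 0.063, 0.459 and 0.175 in WT Tnpo3, from a mean of 12.8 reads. Each of these 9 events rested on a mean of 10 to 33.5 reads per heart, and each had an adjusted p of 0.839 in the quasi-binomial test.

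Exons of RBM20 targets that differ in the mutant were read separately. In 19 target genes with a skipped exon at an FDR under 0.05 between P635L Ctr and WT Ctr in the authors' deposited table, the one with the largest difference among those exons was taken, a choice that uses the WT Ctr libraries and was made with those differences known. The median absolute difference over these 19 exons was 0.134 for P635L Ctr minus WT Ctr. For WT Tnpo3 minus WT Ctr it was 0.043, and the largest was 0.317. Both differences share the controls and are set side by side only. The groups overlapped at all 19, rMATS called 1, and the quasi-binomial test called 0. Among the larger shifts, a 33-base exon of Camk2g averaged 0.516 in WT Ctr and 0.316 in WT Tnpo3, towards P635L Ctr at 0.239. A 72-base exon of Mlip averaged 0.649 in WT Ctr and 0.477 in WT Tnpo3, away from P635L Ctr at 0.959.

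Exons that the mutant hearts include and WT hearts skip were mostly skipped with Tnpo3 too. A 60-base exon of Camk2d, the calcium- and calmodulin-dependent kinase of the heart, was at 0, 0.045, 0.061 and 0.071 in WT Ctr and 0.081, 0.148, 0 and 0.146 in WT Tnpo3, where P635L Ctr averaged 0.958. A 24-base exon of Ryr2, the calcium release channel, was at 0, 0.006, 0.008 and 0.020 in WT Ctr and 0, 0.010, 0.012 and 0.024 in WT Tnpo3, where P635L Ctr averaged 0.202. A 78-base exon of Ttn was at most 0.1 in WT Ctr, and at 0, 0, 1 and 0.087 in WT Tnpo3 from a mean of 18.8 reads. In the first 2 the treated and control levels overlapped. In Ttn 1 treated heart stood alone at a level of 1, where P635L Ctr averaged 0.98. That level rested on 5 reads and each level of 0 on 3 reads, while the heart at 0.087 had 9 inclusion and 55 skipping reads.

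A 15-base exon of Pdlim5, a Z-disc protein of the enigma family, had lower inclusion in the mutant and was covered by more reads. It was at 0.820, 0.792, 0.761 and 0.782 in WT Ctr and 0.899, 0.882, 0.765 and 0.872 in WT Tnpo3, from a mean of 578 and 872 reads, while P635L Ctr averaged 0.558. Of the 4 treated hearts, 3 lay above every control and the other within them. The difference of 0.066 has an FDR of 0.00529 in the authors' deposited table and is below the size limit (exact permutation p = 0.114). A 9-base exon of Tnnt2 was at 0.803 to 0.835 in WT Ctr and 0.801 to 0.848 in WT Tnpo3, from a mean of 81891 and 77149 reads, and at 0.718 in P635L Ctr.

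**Figure D5:**
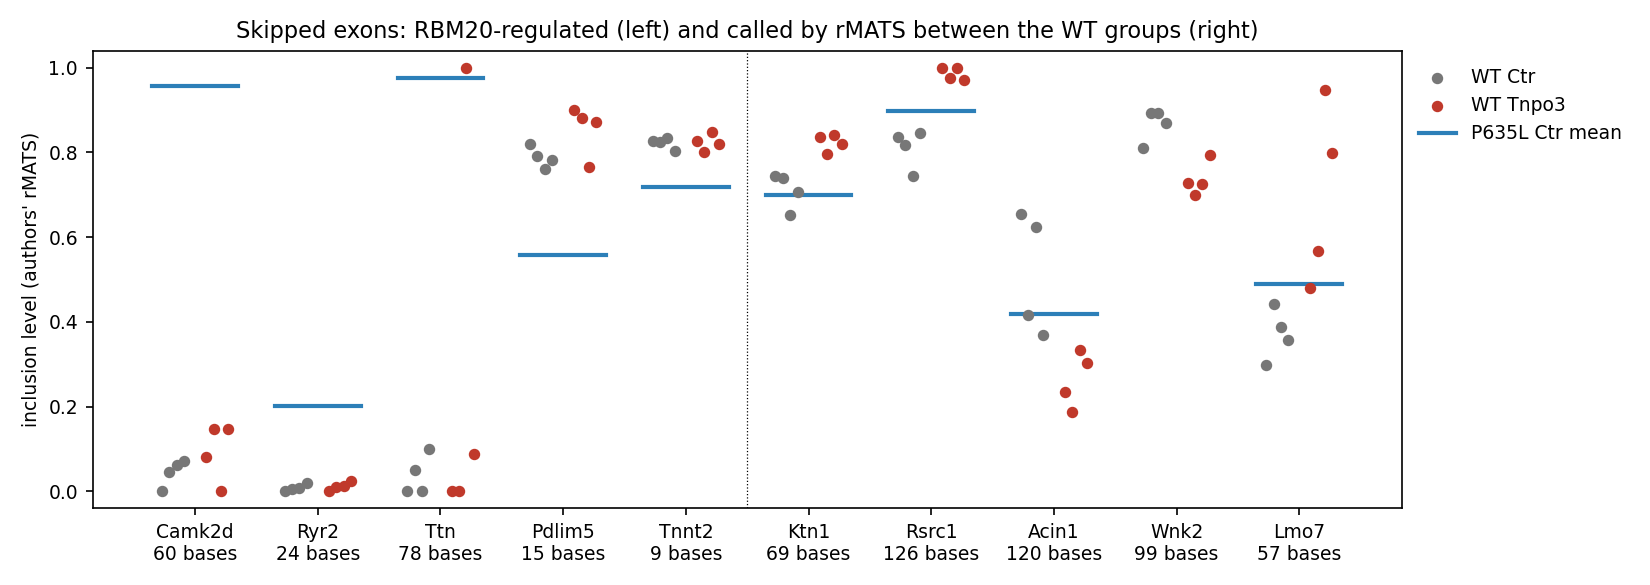
Inclusion level in the authors' rMATS table (y axis, 0 to 1) of 10 skipped exons (x axis, gene and exon length), with WT Ctr in grey, WT Tnpo3 in red and the mean of P635L Ctr as a blue line where listed. At the 5 RBM20-regulated exons on the left the WT groups overlap. The 5 exons on the right were called by rMATS and do not overlap, which holds for only 71 of the 300 calls. For Wnk2 the lack of overlap was a condition of the choice. The others on the right come from the calls in listed genes, and calls there with overlapping groups, as in Ldb3, Irf9 and Rtn4, are not drawn.

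Over all events of the 25 RBM20 targets, rMATS called 9 of 707 (1.27%, beside 0.941% of all events), among them events in Ktn1, Ldb3, Lmo7, Lrrfip1 and Rtn4. In the 25 SR and related factors it called 2 of 127 (1.57%), in Acin1 and Rsrc1, and in the interferon genes 1 of 55 (1.82%), in Irf9. Sarcomere genes had 0 of 178, calcium-handling genes 0 of 160 and transport receptors 0 of 63. In each of these lists the quasi-binomial test called 0. These shares lie near the background of all events and rest on few calls. The groups overlapped at the called exons of Ldb3 (difference -0.373), Irf9 (-0.181) and Rtn4 (-0.105), unlike at the calls described next.

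The deepest call in an RBM20 target was a 69-base exon of Ktn1, which encodes kinectin, a kinesin anchor of the endoplasmic reticulum. It was included at 0.744, 0.739, 0.653 and 0.707 in WT Ctr and 0.836, 0.797, 0.841 and 0.821 in WT Tnpo3, from a mean of 325 and 349 reads. All treated hearts were above all controls, by 0.113 on average (FDR 0.000971 in the authors' deposited table, exact permutation p = 0.0286). P635L Ctr averaged 0.699. Rsrc1, an arginine- and serine-rich splicing factor, included a 126-base exon at 0.836, 0.818, 0.744 and 0.846 in WT Ctr and 1, 0.976, 1 and 0.970 in WT Tnpo3 (FDR 0.000107 in the authors' deposited table, exact permutation p = 0.0286). It rested on a mean of 51 and 54.8 reads, and again the groups did not overlap. Both exons were taken from the rMATS calls on these same reads. Any event without overlap gives an exact permutation p of 0.0286, so here it only restates the lack of overlap. Each exon had an adjusted p of 0.839 in the quasi-binomial test.

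Acin1, a nuclear protein with a serine-rich stretch that joins the exon junction complex, included a 120-base exon at 0.655, 0.417, 0.625 and 0.369 in WT Ctr and 0.234, 0.186, 0.333 and 0.303 in WT Tnpo3 (FDR 0.0495 in the authors' deposited table). A 57-base exon of Lmo7, a protein of cell junctions and the nuclear envelope, was at 0.299, 0.441, 0.388 and 0.356 in WT Ctr and 0.480, 0.568, 0.947 and 0.798 in WT Tnpo3. Wnk2, a kinase that regulates ion transporters, included a 99-base exon at 0.811, 0.893, 0.894 and 0.870 in WT Ctr and 0.727, 0.700, 0.725 and 0.794 in WT Tnpo3, from a mean of 174 and 166 reads. The groups did not overlap in any of the 3, and each had an adjusted p of 0.839 in the quasi-binomial test. Wnk2 and 3 further deep calls, in Wdr45, Tfpi and Rchy1, were picked for their read number among the calls without overlap, after these were known. For Wnk2 the lack of overlap was therefore a condition of the choice.

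The exons on which these comparisons turn are shown so that each inclusion level can be tied to its bases. They come from coding exons of GENCODE M21 transcripts (GRCm38), matched within the gene by the lengths of the exon, its neighbours and both introns. Capitals mark the exon and lower case the 15 bases joined to it on either side in the transcript. The positions are chr13:11634307-11634330 (minus strand) for Ryr2, chr3:142306284-142306298 (minus strand) for Pdlim5, chr14:47704420-47704488 (plus strand) for Ktn1 and chr3:66996465-66996590 (plus strand) for Rsrc1. Each of the 4 lengths is a multiple of 3.
Ryr2, 24-base exon: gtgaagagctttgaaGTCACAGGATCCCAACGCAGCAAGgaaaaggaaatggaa
Pdlim5, 15-base exon: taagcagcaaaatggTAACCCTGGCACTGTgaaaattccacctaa
Ktn1, 69-base exon: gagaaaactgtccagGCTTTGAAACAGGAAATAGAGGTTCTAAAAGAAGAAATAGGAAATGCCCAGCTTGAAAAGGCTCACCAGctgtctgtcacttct
Rsrc1, 126-base exon: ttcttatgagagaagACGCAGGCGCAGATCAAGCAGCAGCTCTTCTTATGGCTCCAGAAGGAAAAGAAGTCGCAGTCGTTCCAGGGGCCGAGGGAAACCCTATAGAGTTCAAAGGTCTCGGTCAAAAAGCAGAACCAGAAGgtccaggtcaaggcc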

How the data were processed

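Raw counts per gene were deposited by the authors, made with featureCounts 2.0.6 from STAR 2.7.9a alignments to GRCm39, per the submitters' processing notes. The annotation and the use of strand are not given in the sources used here. The authors' deposited DESeq2 table gives log2 fold changes and adjusted p-values. The authors' deposited rMATS table gives junction reads, an inclusion level and, as a score, the inclusion difference, with an FDR that is an adjusted p-value.

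Counts of the 8 WT libraries were fitted in R 4.3.3 with edgeR 4.0.16 (robust quasi-likelihood F test, TMM factors, filterByExpr, 6 residual degrees of freedom from libraries, two-sided, Benjamini-Hochberg over the genes tested, called under 0.05). CPM use TMM factors. Library replicates are separate mice. The interaction was fitted to all 16 libraries. DESeq2 1.42.0, limma 3.58.1 voom, other scalings, other filters, fits without single libraries and fits without the rich or Xist-high libraries were alternatives. Junction reads were tested in a quasi-binomial model with dispersion moderated by limma. Both tests were also run on simulated data with known changes, as a check of the code. Libraries were drawn independently there, with a common overdispersion for all splicing events. The runs therefore do not show how the tests perform on these libraries. Named genes are Tnpo3, Rbm20, Irf5, called genes, the 8 smallest p in each direction without overlap, and list members with an unadjusted p under 0.05 or the highest level. Gm13394 and ENSMUSG00000120166 were added for the authors' calls. Members and the 32 lists (351 genes) were chosen with earlier results of these data known. Some items that the rules above would name are not reported here.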

Additional observations from a re-analysis of the deposited data

Results flagged for a closer look

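Of 164 sets of 4 values examined (named genes, summed lists and library measures), 14 held a highest or lowest value whose gap to the nearest other filled more of the range than Dixon's 95% critical value allows. Chance alone flags about 1 in 20 such sets. WT Ctr 1 gave 5 of them, all highest. Irf5 was at 16.7 CPM there, beside 3.73 to 5.19 CPM in the other controls. The summed level was 905 CPM for interferon genes (others 408 to 447), 90.0 CPM for T cell markers (others 2.36 to 4.63), 2610 CPM for antigen presentation (others 266 to 473) and 6.85 CPM for neutrophil markers (others 2.13 to 2.89).

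WT Tnpo3 4 gave 4 flags. ENSMUSG00000119584 took 22.6% of its counts, beside 0.75% to 1.39% in the other treated hearts, the 5 most abundant genes took 29.4% (others 9.81% to 11%), Ttn was at 7730 CPM (others 1890 to 2080), and Acsm5 was lowest at 1.56 CPM (others 2.7 to 2.88).

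The others were single values. L1cam was at 4.07 CPM in WT Tnpo3 2 (others 5.07 to 5.2). Nudc-ps1, a pseudogene whose reads could be shared with its parent gene, was at 4.66 CPM in WT Ctr 4 (others 2.05 to 2.44). The import and export receptors summed to 1290 CPM in WT Ctr 2 (others 1140 to 1160), the SR protein kinases to 566 CPM in WT Tnpo3 3 (others 425 to 449) and the neutrophil markers to 4.92 CPM in WT Tnpo3 3 (others 1.65 to 2.08).

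For 2 named genes the effect of the vector differed between the genotypes by the interaction test of edgeR with Benjamini-Hochberg adjustment. The difference, P635L minus WT, was 3.21 on the log2 scale for Acsm5, from -0.86 in WT and 2.34 in P635L. It was 2.16 for Myh7, from -0.77 in WT and 1.38 in P635L. Both genes overlap another gene on the opposite strand.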

How the results depend on the processing

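Tnpo3 was called under all 20 alternatives for genes. The number of genes called stayed at 1 except for 2 with DESeq2 (which adds ENSMUSG00000120166), 2 without the 3 libraries rich in ENSMUSG00000119584 and 2 without the 3 Xist-high libraries (both add Gm7993). The labels do not say that a replicate number marks shared mice, litters or days. Same-numbered libraries of both groups correlated in their deviations at 0.06, 0.31, 0.46 and 0.63, so not every pair was over 0.1 and the numbers were not used as pairs. Yet the first principal component followed the replicate number in both groups. With that number as a block 1 gene was called and Clk1 was at 0.028 on the log2 scale. The genes with an unadjusted edgeR p under 0.05 then numbered 425, against 177 in the main fit. Not every library correlated best with its own number. The count of genes whose vector effect differs between the genotypes was 94 and depended on the setting, with 146 without a low-count filter, 414 by DESeq2, 180 by limma voom, 322 without the rich libraries, 54 without the Xist-high ones and 57 to 221 when single libraries were left out. The rMATS count of 300 became 134 at an FDR under 0.01, 106 at a difference of at least 0.2, 525 at 0.05, 167 with at least 20 reads and 71 without overlap. The quasi-binomial count of 0 became 0 to 3 when single positions were left out. Log2 fold changes near 0 changed sign, and the cause was not tested. With limma voom, Irf5 was at 0.090, Tef at -0.053, Fabp3 at 0.044 and Cenpf at -0.085. Without the rich libraries, Tef was at -0.056, Fabp3 at 0.17, Hspb7 at 0.12, Cenpf at -0.086, Kpnb1 at 0.016 and Ttn at 0.089. With an Xist covariate, Fabp3 was at 0.081 and Clk1 at 0.014, and without the Xist-high libraries Fabp3 was at 0.036, Kcnk3 at -0.11 and Clk1 at 0.17. Leaving out single libraries gave -0.29 to 0.062 for Rbm20, -0.52 to 0.46 for Irf5, -0.15 to 0.38 for Tef, -0.19 to 0.15 for Fabp3, -0.20 to 0.033 for Aldoa, -0.25 to 0.054 for Hspb7, -0.015 to 0.29 for Kcnk3, -0.088 to 0.27 for Cenpf, -0.068 to 0.17 for Ipo5, -0.060 to 0.17 for Ran, -0.11 to 0.023 for Kpnb1, -0.26 to 0.27 for Clk1 and -0.17 to 0.048 for Son. Depth bears on splicing: the median absolute inclusion difference was 0.051 at a mean of 10 to 20 reads per heart and 0.004 at 100 or more.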
